A study of Mus musculus with 12 samples.

Results

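The 10 genes of endoplasmic reticulum (ER) stress and the integrated stress response described here are *Hspa5*, *Hsp90b1*, *Calr*, *Xbp1*, *Dnajb9*, *Herpud1*, *Atf4*, *Ddit3*, *Trib3* and *Asns*. They were matched by gene symbol in the deposited transcript table of epididymal white adipose tissue (eWAT), and all 10 were found among the 22869 genes of that table. The tissue came from individually housed male C57BL/6J mice, 21 weeks old after 16 weeks on a normal diet (ND), a high-fat diet (HFD), the HFD containing an ethanol extract of chrysanthemum leaf at 1.5% by weight (CLE), or the HFD containing luteolin, a flavonoid found in many plants, at 0.003% by weight (LU). Each group had 3 mice, which the methods call representative of their group, with 1 library per mouse, so 12 libraries in all. The methods state that all mice were fasted before anesthesia at the end of the experiment. Mice are called here by the number in their label. Values are FPKM, that is fragments of a transcript scaled for its length and for the number of mapped fragments, summed over the transcripts of a gene. The tests ran over the 12791 genes with at least 1 FPKM in at least 3 libraries, by limma on log2(FPKM + 1), and all 10 genes were among these. A gene was called at an adjusted p under 0.05 (Benjamini-Hochberg over all genes tested in that comparison) together with a fold change over 1.5. Every log2 fold change refers to FPKM + 1, so that changes of genes at low levels are understated.

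The ER folds secreted and membrane proteins, and an excess of unfolded protein activates the sensors IRE1, ATF6 and PERK. IRE1 excises a short intron from the *Xbp1* mRNA, ATF6 is cleaved to a transcription factor, and both raise the genes of chaperones and of ER-associated degradation. PERK and other kinases phosphorylate eIF2 alpha, which lowers general translation and favours translation of ATF4, the activator of genes of amino acid supply and of CHOP (*Ddit3*). This second route is the integrated stress response. It answers to amino acid shortage as well as to ER stress, and both responses have been studied in obese adipose tissue.

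The DNA elements through which these factors are known to act were searched in the RefSeq promoter window of each gene, which runs from 250 bases before to 50 bases after the annotated start in GRCm38.p6. All 10 genes had a window. Both strands were searched for the ER stress response element ERSE (CCAAT, 9 bases of any kind, then CCACG), for ERSE-II (ATTGG, 1 base of any kind, then CCACG), for the ATF4 element CARE (TGATGNAA) and for the core of the unfolded protein response element UPRE (TGACGTG). Among 32851 mouse windows, 0.119% held ERSE, 0.0365% ERSE-II, 3.97% CARE and 2.01% the UPRE core. ERSE was found in 3 of the 10 genes, the chaperone genes *Hspa5*, *Calr* and *Hsp90b1*, which held 2 copies. *Herpud1* held ERSE-II, *Hspa5* the UPRE core, and *Herpud1*, *Trib3* and *Asns* held CARE. No match overlapped another, and the windows of *Xbp1*, *Dnajb9*, *Atf4* and *Ddit3* held none of these letters. The 250 bases before the start are given for 5 of the genes, because they set the chaperone genes beside *Asns*, which moved the other way. Matches on either strand are in capitals, and each sequence runs 5′ to 3′ on the strand of its gene. They lie at chr2:34771840-34772089 (plus strand), chr10:86705445-86705694 (minus strand), chr8:84846932-84847181 (minus strand), chr8:94386179-94386428 (plus strand) and chr6:7693210-7693459 (minus strand).
Hspa5: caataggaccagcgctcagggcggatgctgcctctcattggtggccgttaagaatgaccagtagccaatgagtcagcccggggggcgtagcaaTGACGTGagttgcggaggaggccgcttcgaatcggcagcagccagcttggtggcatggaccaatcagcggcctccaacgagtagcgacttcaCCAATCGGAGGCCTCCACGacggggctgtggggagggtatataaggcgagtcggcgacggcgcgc
Hsp90b1: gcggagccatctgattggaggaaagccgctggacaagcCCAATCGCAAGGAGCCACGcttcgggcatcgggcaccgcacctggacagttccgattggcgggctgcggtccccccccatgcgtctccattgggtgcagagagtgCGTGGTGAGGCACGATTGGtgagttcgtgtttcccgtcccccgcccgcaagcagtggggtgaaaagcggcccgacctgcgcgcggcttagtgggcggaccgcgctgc
Calr: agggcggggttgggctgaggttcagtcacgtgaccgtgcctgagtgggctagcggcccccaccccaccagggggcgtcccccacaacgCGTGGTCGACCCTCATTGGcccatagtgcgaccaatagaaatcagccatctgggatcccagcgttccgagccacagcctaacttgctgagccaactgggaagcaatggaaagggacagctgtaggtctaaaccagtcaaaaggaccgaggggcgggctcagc
Herpud1: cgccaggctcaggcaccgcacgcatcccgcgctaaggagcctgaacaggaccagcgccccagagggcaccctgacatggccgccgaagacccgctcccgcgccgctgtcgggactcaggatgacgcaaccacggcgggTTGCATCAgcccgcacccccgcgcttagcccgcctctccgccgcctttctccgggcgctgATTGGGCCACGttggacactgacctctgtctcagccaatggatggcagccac
Asns: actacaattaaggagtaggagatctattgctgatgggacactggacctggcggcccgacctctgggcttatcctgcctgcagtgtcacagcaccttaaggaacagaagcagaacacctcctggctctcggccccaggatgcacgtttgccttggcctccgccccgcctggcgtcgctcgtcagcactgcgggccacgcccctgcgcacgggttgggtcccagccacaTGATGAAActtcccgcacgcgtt

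In *Hspa5* the ERSE copy lies at -65 to -47 from the annotated start, in *Calr* at -162 to -144 on the opposite strand, and in *Hsp90b1* at -212 to -194 and, on the opposite strand, at -107 to -89. The CARE copy of *Asns* lies at -23 to -16. A match describes the letters of the window and is not evidence of binding. Genes and elements were both chosen as known parts of these responses, so their matches are no test against the shares of all windows.

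Cell type markers differed between the groups. The whole tissue was extracted, so that fewer cells of a type and less RNA per cell cannot be told apart. The summed FPKM of 10 macrophage markers ranged from 334 to 507 in the ND mice, 2340 to 2700 in the HFD mice, 585 to 879 in the CLE mice and 927 to 1060 in the LU mice, and all 10 markers were called higher in HFD than in ND and lower in CLE and in LU than in HFD. The sum of 8 adipocyte markers, among them *Adipoq*, *Plin1* and *Fabp4*, ranged from 27100 to 28900 in ND, 15900 to 18000 in HFD, 24000 to 25900 in CLE and 22500 to 27800 in LU. Of these 8 markers, 6 were called lower in HFD than in ND and *Lep* (leptin) higher, while *Fabp4*, the most abundant of them, changed sign under quantile normalization. The sum of 6 markers of progenitors and fibroblasts lay between 1540 and 1600 in HFD and between 770 and 1060 in the other groups. Of the 6, *Col1a1*, *Col3a1* and *Lum* were called higher in HFD than in ND. *Pdgfra* (0.35, adjusted p = 0.29), *Dpp4* (0.57, adjusted p = 0.082) and *Dcn* (-0.31, adjusted p = 0.21) were not called. The 7 markers of plasma cells, a cell type rich in ER, summed to 135 to 239 in ND, 265 to 314 in HFD, 153 to 258 in CLE and 225 to 272 in LU. That sum was carried by *Ighm* and *Sdc1*, which were called higher in HFD than in ND, while *Jchain* was called lower (-2.17, adjusted p = 0.024), *Igkc* (-1.92, adjusted p = 0.058) and *Derl3* (-0.26, adjusted p = 0.18) were not called, *Mzb1* and *Tnfrsf17* were too low to be tested, and the median over the 5 tested markers was -0.26. Of the markers of the adjoining epididymis, *Lcn5* was listed at 0 in every library, and the sum of its 6 markers reached at most 5.69. The part of these differences in the values below was not tested. A letter R, whose meaning is not stated, stands in the titles of 4 libraries (ND 3, ND 4, CLE 4 and LU 2) and in no HFD title, so that no comparison with HFD could be made within it.

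Between HFD and ND, 6 of the 10 genes were called, where 25.7% of all genes tested were called, 14.9% higher and 10.8% lower. The chaperone genes *Hspa5* and *Calr* and the stress factor gene *Ddit3* were higher in the HFD mice, while *Xbp1*, *Trib3* and *Asns* were lower. The genes downstream of ER stress therefore did not move as 1 group, and the median log2 fold change of the 10 genes was -0.02, the same as that of all genes tested. In 8 of the 10 genes the 3 HFD mice did not overlap with the 3 ND mice, 4 above and 4 below, which held for 59.6% of all genes, 30.2% above and 29.4% below. The plot of the 10 genes by mouse shows these levels.

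**Figure D1:**
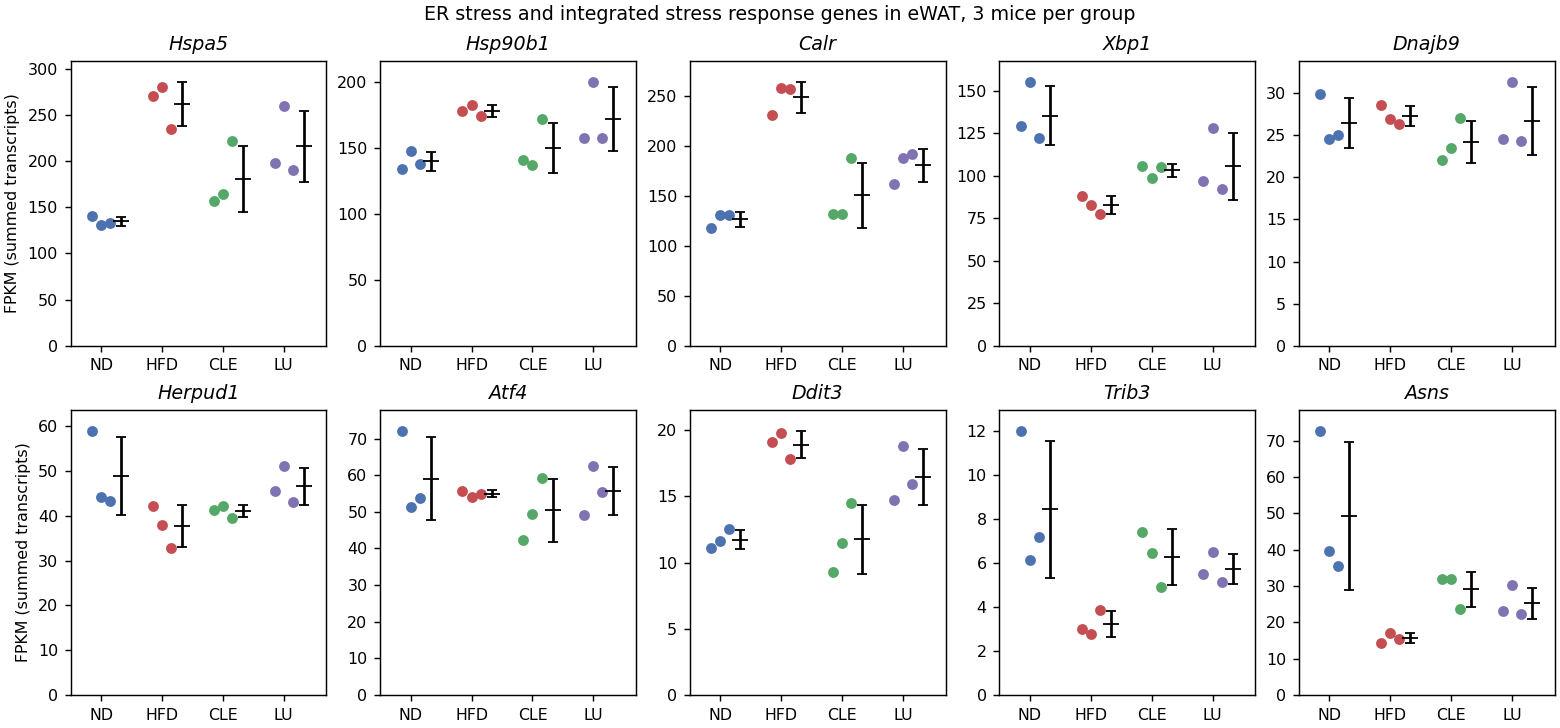
FPKM of the 10 genes (y axis, starting at 0) in each of the 3 mice of the ND, HFD, CLE and LU groups (coloured points), with the mean and SD of the group in black. *Hspa5* and *Calr* are highest and *Asns* and *Trib3* lowest in the HFD mice, while *Atf4* and *Dnajb9* overlap between all groups.

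*Hspa5* (ENSMUSG00000026864, chromosome 2, 34771970 to 34777547) encodes BiP, the main ER chaperone and a brake on the ER stress sensors. It was measured at 140, 131 and 133 FPKM in the ND mice, 270, 280 and 235 in the HFD mice, 157, 164 and 222 in the CLE mice, and 198, 260 and 190 in the LU mice. All ND mice lay close together and below every other mouse. CLE mouse 11 and, in LU, mouse 3 were the highest of their groups. The log2 fold change of HFD against ND was 0.95 (standard error 0.15, adjusted p = 0.00029), from 135 ± 4.87 to 262 ± 24.1 FPKM (SD, n = 3). *Calr* (ENSMUSG00000003814, chromosome 8, 84841850 to 84846934) encodes calreticulin, a calcium-binding lectin chaperone that retains glycoproteins until they are folded. It stood at 118, 131 and 131 FPKM in ND, 231, 258 and 257 in HFD, 132, 132 and 188 in CLE, and 162, 188 and 192 in LU. Each HFD mouse was above each mouse of the other 3 groups. Its change with HFD was 0.97 (standard error 0.13, adjusted p = 0.00012). *Hsp90b1* (ENSMUSG00000020048, chromosome 10, 86690209 to 86705509), which encodes the ER chaperone GRP94, was measured at 134, 148 and 138 FPKM in ND, 178, 183 and 174 in HFD, 141, 137 and 172 in CLE, and 158, 200 and 158 in LU. The HFD mice were above the ND mice, and LU mouse 3 was above them all. With a log2 fold change of 0.35 (adjusted p = 0.023), *Hsp90b1* stayed under the fold required for a call. The loci of 3 other annotated genes overlap *Hsp90b1*, and the strand of the libraries is not stated, so that reads of overlapping genes cannot be told apart.

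*Xbp1* (ENSMUSG00000020484, chromosome 11, 5520659 to 5525893) encodes the transcription factor made when IRE1 splices its mRNA. It was measured at 129, 155 and 122 FPKM in the ND mice, 88.2, 82.9 and 77.5 in the HFD mice, 106, 98.9 and 105 in the CLE mice, and 96.7, 128 and 92.0 in the LU mice. The HFD mice were below every mouse of the other groups, opposite to the chaperone genes. The log2 fold change of HFD against ND was -0.70 (standard error 0.13, adjusted p = 0.00092), and the level fell to a ratio of 0.613. These values are the total of *Xbp1* transcripts and do not separate the spliced mRNA. The region that IRE1 excises is marked by 26 bases in capitals in the stretch that follows. Since CAG stands both before the capitals and at their end, the letters alone do not place the exact cuts. The stretch was present in all 3 protein-coding transcripts of *Xbp1* listed under a plain Ensembl identifier. These transcripts stand for the unspliced form. In the retained-intron transcript with a plain identifier (mean 10.7 FPKM) the stretch was not found, and the remaining *Xbp1* rows were not examined for it. The stretch was read from the GENCODE M21 transcript with the highest mean level (72.9 FPKM), in which the capitals begin at base 818.
Xbp1: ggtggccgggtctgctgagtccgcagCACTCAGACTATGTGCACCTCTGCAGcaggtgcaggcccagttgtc

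*Dnajb9* and *Herpud1* are known targets of the IRE1 and ATF6 routes. *Dnajb9* (ENSMUSG00000014905, chromosome 12, 44205559 to 44210326) encodes ERdj4, a co-chaperone of BiP, and was measured at 29.9, 24.5 and 25.0 FPKM in ND, 28.6, 26.9 and 26.3 in HFD, 22.1, 23.5 and 27.0 in CLE, and 24.5, 31.3 and 24.3 in LU. The groups overlapped throughout, and the change with HFD was 0.05 (95% interval -0.21 to 0.31, adjusted p = 0.76), which leaves out a fold change of 1.5 in either direction. *Herpud1* (ENSMUSG00000031770, chromosome 8, 94386438 to 94395377) encodes a membrane protein of ER-associated degradation and stood at 58.9, 44.3 and 43.3 FPKM in ND, 42.3, 37.9 and 32.9 in HFD, 41.3, 42.3 and 39.6 in CLE, and 45.5, 51.2 and 43.1 in LU. The HFD mice were below the ND mice, the highest of which was mouse 2. The log2 fold change of -0.36 (adjusted p = 0.036) was under the fold required. It was -0.64 (adjusted p = 0.022), a call, among the 8 libraries without the letter R, where mouse 2 is the only ND mouse and the spread is taken from the other groups.

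*Atf4* (ENSMUSG00000042406, chromosome 15, 80255184 to 80257541), whose product is controlled mainly at translation, did not pass the test in any comparison. It was measured at 72, 51.2 and 53.8 FPKM in ND, 55.8, 54.0 and 55 in HFD, 42.4, 49.4 and 59.3 in CLE, and 49.2, 62.5 and 55.3 in LU. The HFD mice fell within 2 FPKM of each other and inside the range of the ND mice, and the change with HFD was -0.08 (95% interval -0.41 to 0.24, adjusted p = 0.66). *Ddit3* (ENSMUSG00000025408, chromosome 10, 127290774 to 127296288) encodes CHOP, a transcription factor linked to cell death under lasting ER stress. Its level was 11.1, 11.6 and 12.5 FPKM in ND, 19.1, 19.8 and 17.8 in HFD, 9.26, 11.5 and 14.5 in CLE, and 14.7, 18.8 and 15.9 in LU. All HFD mice were above all ND and CLE mice, and LU mouse 3 reached into the HFD range. *Ddit3* was called higher in HFD than in ND at 0.64 (standard error 0.14, adjusted p = 0.0024). Under quantile normalization the change was 0.57 (adjusted p = 0.004), just under the fold required. The *Ddit3* locus overlaps *Mars*, *Gm4189* and a second gene entry of the same name, whose reads cannot be told apart from its own.

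*Trib3* and *Asns*, both known targets of ATF4, were lower in HFD, opposite to *Ddit3*. *Trib3* (ENSMUSG00000032715, chromosome 2, 152337422 to 152344032) encodes a pseudokinase that restrains AKT and ATF4, and was measured at 12.0, 6.16 and 7.19 FPKM in ND, 3.02, 2.77 and 3.88 in HFD, 7.43, 6.47 and 4.89 in CLE, and 5.52, 6.50 and 5.16 in LU. The HFD mice were below every other mouse. *Asns* (ENSMUSG00000029752, chromosome 6, 7675169 to 7693254) encodes asparagine synthetase, and stood at 72.6, 39.5 and 35.5 FPKM in ND, 14.4, 17.1 and 15.3 in HFD, 31.9, 31.8 and 23.6 in CLE, and 23.2, 30.2 and 22.4 in LU. Again no HFD mouse reached the range of another group, and ND mouse 2 was far above ND mice 3 and 4. The log2 fold changes of HFD against ND were -1.12 for *Trib3* (standard error 0.21, adjusted p = 0.00089) and -1.53 for *Asns* (standard error 0.23, adjusted p = 0.00022), the largest change among the 10 genes. ND mouse 2 also had the highest *Atf4* and *Herpud1* levels of the ND group. In the 12 fits that each left out 1 library, the change of *Asns* ranged from -1.72 to -1.22 and that of *Trib3* from -1.30 to -0.87, and the number of genes called among the 10 was 6 in each fit. Without the letter R libraries, ND consists of mouse 2 alone, whose spread is then taken from the other groups, so the 7 calls of that fit (the 6 genes and *Herpud1*) are no check on the ND mice.

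**Figure D2:**
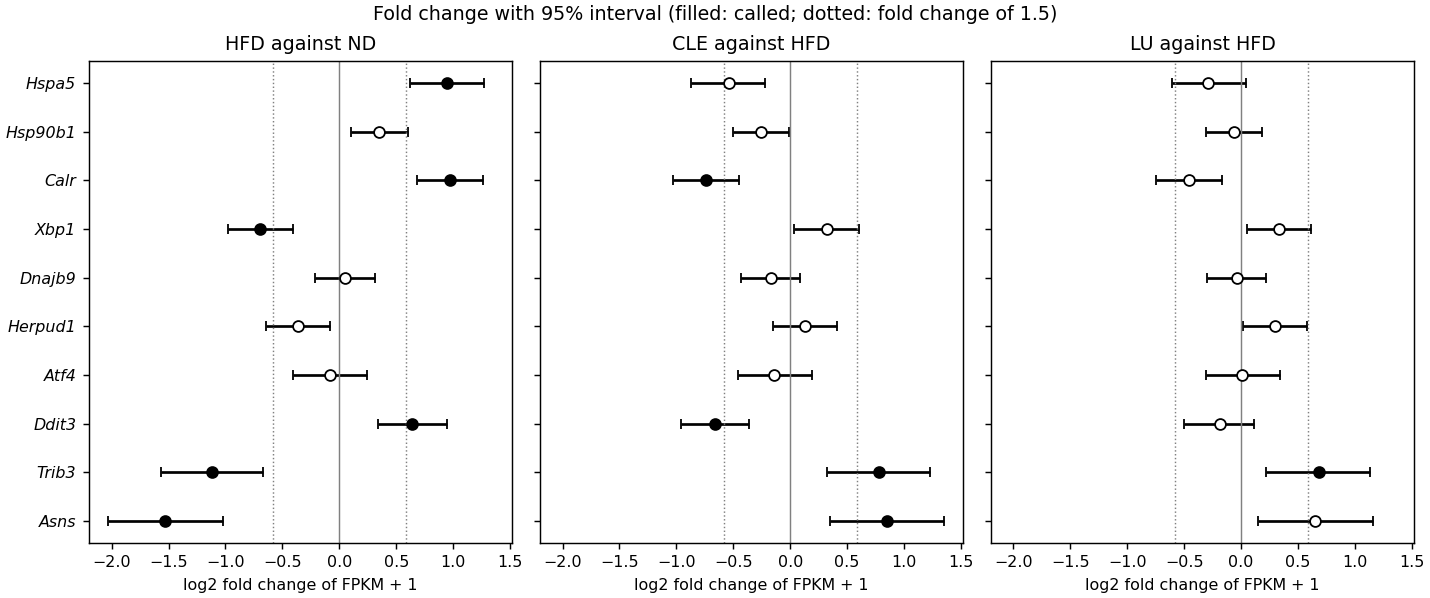
Log2 fold change of FPKM + 1 (x axis) with its 95% interval for the 10 genes (y axis) in HFD against ND, CLE against HFD and LU against HFD, where filled points are called and dotted lines mark a fold change of 1.5. *Calr*, *Ddit3*, *Trib3* and *Asns* are called with opposite signs in HFD against ND and in CLE against HFD, comparisons that share the HFD mice.

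The comparison of CLE with HFD asked whether the extract altered the response to the HFD. The same HFD mice entered HFD against ND, CLE against HFD and LU against HFD, so that these comparisons are not independent. In CLE, 4 of the 10 genes were called, where 16.5% of all genes were called, 6.36% higher and 10.2% lower. *Calr* and *Ddit3* were lower than in HFD, by log2 fold changes of -0.74 (standard error 0.13, adjusted p = 0.0015) and -0.66 (standard error 0.14, adjusted p = 0.0036). *Trib3* and *Asns* were higher, by 0.78 (standard error 0.21, adjusted p = 0.013) and 0.85 (standard error 0.23, adjusted p = 0.015). The CLE and HFD mice did not overlap in 7 of the 10 genes, 3 above and 4 below, against 50.6% of all genes, 24.4% above and 26.2% below. *Hspa5* reached -0.54 (adjusted p = 0.015), a ratio of 0.692, and stayed under the fold required. Without CLE mouse 11 it was -0.70 (adjusted p = 0.0027) and called, as it was at -0.62 without HFD mouse 18. *Xbp1* had a change of 0.32 (adjusted p = 0.079) and *Hsp90b1* of -0.26 (adjusted p = 0.099), while *Atf4*, *Dnajb9* and *Herpud1* changed by -0.14, -0.17 and 0.13 with adjusted p between 0.30 and 0.51. Median log2 fold changes were -0.15 for the 10 genes and 0.01 for all genes.

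The CLE group was uneven. CLE mouse 11 had the highest *Hspa5*, *Hsp90b1*, *Calr*, *Ddit3* and *Atf4* and the lowest *Trib3* and *Asns* of the 3 CLE mice, and so lay closest to the HFD group in each of these genes. It also had the highest macrophage sum of that group, 879 against 585 and 677. Without CLE mouse 2, only *Calr* was called among the 10 genes, since *Ddit3* (-0.51) came under the fold required and *Trib3* (adjusted p = 0.054) and *Asns* (adjusted p = 0.051) over the p threshold. *Trib3* also missed it without HFD mouse 15 (adjusted p = 0.051), and *Asns* without HFD mouse 12 (adjusted p = 0.052) or CLE mouse 4 (adjusted p = 0.054). Over all fits that left out 1 library, between 1 and 5 of the 10 genes were called in CLE against HFD. Among the 8 libraries without the letter R, 4 of the 10 were called, and *Calr* (-0.65), *Ddit3* (-0.66), *Trib3* (0.75) and *Asns* (0.78) were the calls.

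In LU against HFD, the question of whether luteolin alone altered the response, 1 of the 10 genes was called, where 12.5% of all genes were called, 4.79% higher and 7.67% lower. This was *Trib3*, higher by 0.68 (standard error 0.21, adjusted p = 0.031), a ratio of means of 1.78. *Asns* was at 0.65 (standard error 0.23, adjusted p = 0.055) and missed the p threshold, although each LU mouse was above each HFD mouse. *Calr* was at -0.46 (adjusted p = 0.025), under the fold required, again with no overlap between the groups. *Xbp1* had 0.33 (adjusted p = 0.075) and *Herpud1* 0.30 (adjusted p = 0.10), also with every LU mouse above every HFD mouse. In all, 5 of the 10 genes did not overlap, 4 above and 1 below, against 47.7% of all genes, 25.6% above and 22.1% below. *Ddit3*, which had a change of -0.19 (adjusted p = 0.33), and *Hspa5*, with -0.29 (adjusted p = 0.17), overlapped with the HFD range through LU mouse 3. The *Trib3* call was lost when HFD mouse 12, HFD mouse 15, LU mouse 2 or LU mouse 3 was left out (adjusted p between 0.066 and 0.11), whereas *Asns* was called too without ND mouse 2 (adjusted p = 0.0078) or ND mouse 4 (adjusted p = 0.042).

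The supplemented mice were also compared with the ND mice. In CLE against ND, 0 of the 10 genes were called by limma, where 2.99% of all genes were called (383 genes, but 128 without CLE mouse 11, 139 without ND mouse 2 and 240 without CLE mouse 4), and 3 had an unadjusted p under 0.05 (23.3% of all genes), namely *Hspa5* (0.40), *Xbp1* (-0.38) and *Asns* (-0.68), with adjusted p between 0.10 and 0.13. The groups did not overlap in 5 of the 10 genes, where 24.7% of all genes did not, with each CLE mouse above each ND mouse for *Hspa5* and *Calr* and below for *Xbp1*, *Herpud1* and *Asns*. In LU against ND, 2 of the 10 were called, against 6.56% of all genes. *Hspa5* was higher by 0.66 (standard error 0.15, adjusted p = 0.014) and *Asns* lower, at -0.87 (standard error 0.23, adjusted p = 0.029). *Calr* (0.51, adjusted p = 0.029) was under the fold required. *Hspa5* came under it as well without LU mouse 3, at 0.52, and missed the p threshold among the 8 libraries without the letter R, of which 1 is ND (adjusted p = 0.16). Without ND mouse 2 the change of *Asns* was -0.56 (adjusted p = 0.060). Each LU mouse was above each ND mouse for *Hspa5*, *Hsp90b1*, *Calr* and *Ddit3* and below for *Asns*, 5 of the 10 genes, where 30.1% of all genes did not overlap. *Asns* also missed the p threshold without LU mouse 2 or LU mouse 8, with adjusted p of 0.09 and 0.10.

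Directly between CLE and LU, 0 of the 10 genes were called by limma, where 0.00782% of all genes were called, 1 gene. Before adjustment, *Ddit3* alone among the 10 passed 0.05, as did 5.22% of all genes (adjusted p = 0.90 in limma). Its log2 difference of CLE minus LU was -0.47 (95% interval -0.77 to -0.16), and each CLE mouse, up to 14.5 FPKM, was below each LU mouse, from 14.7 FPKM. For *Calr* the difference was -0.28 (95% interval -0.57 to 0.01), for *Hspa5* -0.26 (-0.58 to 0.07), for *Trib3* 0.10 (-0.35 to 0.55) and for *Asns* 0.20 (-0.31 to 0.70). *Ddit3* and *Herpud1* were the genes among the 10 in which CLE and LU mice did not overlap, against 9.00% of all genes. The calls that CLE had and LU lacked were thus not shown to differ between the supplements.

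The other genes of these pathways were followed in lists beside the 10 genes. Of 21 further ER chaperones and folding enzymes, 6 were called higher in HFD than in ND and 0 lower, where 14.9% of all genes were called higher and 10.8% lower. Without the fold requirement, 17 of the 21 had an adjusted p under 0.05, all of them higher, where 50.6% of all genes passed in either direction. The median log2 fold change of the list was 0.40, against -0.02 for all genes. *Sdf2l1*, a partner of ER co-chaperones, rose from 4.20, 6.77 and 5.76 FPKM to 20.7, 19.0 and 19.7 FPKM, by 1.68 (adjusted p = 1.9e-05). *Ero1lb*, an oxidase that recharges protein disulfide isomerases, rose from 3.79, 4.01 and 3.77 FPKM to 8.25, 7.44 and 7.36 FPKM, by 0.84 (adjusted p = 1.2e-05). The remaining calls were the disulfide isomerases *Pdia3* (0.66) and *Pdia5* (0.64), the BiP co-chaperone *Dnajb11* (0.65) and *Uggt1* (0.74), the sensor of misfolded glycoproteins. In CLE, *Sdf2l1* (-0.99) and *Ero1lb* (-0.66) were called lower than in HFD, 2 of the 21, and 0 were called higher, where 10.2% and 6.36% of all genes were. *Sdf2l1* alone was called in LU, lower at -0.59 (adjusted p = 0.031), where 7.67% of all genes were called lower. This call was lost under quantile normalization and without the libraries with the letter R. The medians of the list were -0.29 in CLE and -0.16 in LU against HFD. Without the fold requirement, 9 of the 21 had an adjusted p under 0.05 in CLE and 5 in LU, all of them lower. Among all 12791 genes, 4320 and 3464 passed in either direction.

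Genes of ER-associated degradation showed few calls. Of 17 genes, *Sel1l*, the scaffold of the HRD1 ubiquitin ligase, was called higher in HFD at 0.68 (adjusted p = 0.00045), where 14.9% of all genes were, and the median was 0.07. Among 14 genes of ER entry and signal peptide removal, the call was *Spcs3*, a subunit of signal peptidase, at 0.62 (adjusted p = 0.00026), with a median of 0.09; this call was lost without ND mouse 4 and under quantile normalization. In both CLE and LU against HFD, limma called 0 genes of these 2 lists. An unadjusted p under 0.05, found for 44.0% of all genes in CLE and 39.3% in LU, was found for 5 and 3 of the 17 genes and for 5 and 5 of the 14.

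Of the 12 genes of the sensors and of signal processing, 2 were called higher in HFD and 0 lower, where 14.9% and 10.8% of all genes were, a share of higher genes near that of all genes. The median of the list was 0.31. *Atf6* itself rose from 10.4, 10.4 and 9.81 FPKM to 17.2, 15.5 and 17.3 FPKM, by 0.66 (adjusted p = 2.9e-05). *Wfs1*, an ER membrane protein that is mutated in Wolfram syndrome, rose from 6.67, 6.89 and 7.17 FPKM to 42.0, 33.7 and 37.5 FPKM, by 2.29 (adjusted p = 1.8e-05). The levels of *Wfs1* were 8.90, 9.58 and 18.9 FPKM in CLE and 11.8, 10.6 and 17.9 FPKM in LU, changes of -1.59 (adjusted p = 0.00051) and -1.46 (adjusted p = 0.0015) against HFD. *Ern1* (IRE1) and *Eif2ak3* (PERK) had changes of 0.43 and 0.31 with HFD, under the fold required.

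Among 11 genes of the eIF2 alpha kinases, phosphatase subunits and eIF2B, *Eif2b3* was called lower in HFD, at -0.64 (adjusted p = 0.00059), and 0 were called higher, where 10.8% and 14.9% of all genes were. In CLE, *Ppp1r15a*, which encodes the stress-induced phosphatase subunit GADD34, was called higher than in HFD at 0.75 (adjusted p = 0.0056), where 6.36% of all genes were, from 7.99, 6.54 and 7.63 FPKM to 11.4, 13.7 and 14.3 FPKM. In LU it had 10.7, 9.28 and 12.7 FPKM, a change of 0.50 (adjusted p = 0.049). Limma called 0 genes of this list in LU, where 4 had an unadjusted p under 0.05, against 39.3% of all genes.

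**Figure D3:**
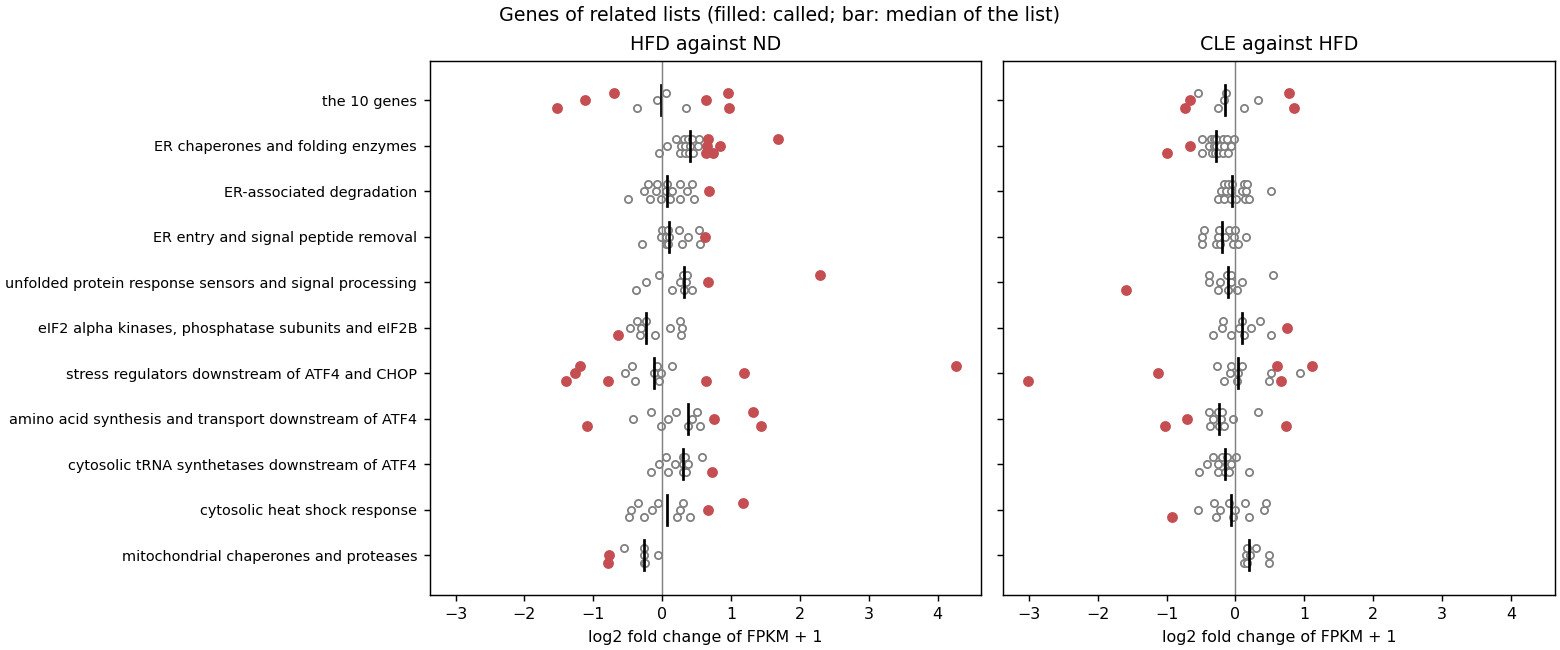
Log2 fold change of FPKM + 1 (x axis) of the tested genes of each list (y axis), 1 point per gene, in HFD against ND and in CLE against HFD, where filled points are called and the black bar is the median of the list. ER chaperones lie mostly to the right in HFD against ND (median 0.40), while the stress regulators downstream of ATF4 and CHOP are called in both directions, from 4.27 for *Atf3* to -1.39 for *Chac1*.

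Stress regulators downstream of ATF4 and CHOP were called in both directions, as *Ddit3*, *Trib3* and *Asns* were. Of 15 genes, 3 were called higher and 4 lower in HFD than in ND, where 14.9% and 10.8% of all genes were. *Atf3*, a transcription factor induced by many stresses, rose from 3.25, 2.53 and 2.42 FPKM to 80.1, 64.5 and 68.5 FPKM, by 4.27 (standard error 0.44, adjusted p = 1.4e-05). *Gdf15*, a secreted stress hormone, rose by 1.19 (adjusted p = 0.0026) and *Vldlr*, a lipoprotein receptor, by 0.64 (adjusted p = 0.0015). Lower in HFD were *Chac1*, which degrades glutathione, with 18.3, 12.5 and 13.6 FPKM in ND and 5.54, 4.90 and 4.50 FPKM in HFD (-1.39, adjusted p = 0.0001), and *Sesn2*, an inhibitor of mTORC1, with 65.2, 33.9 and 48.3 FPKM in ND and 19.9, 21.2 and 16.3 FPKM in HFD (-1.27, adjusted p = 0.00065). The mTORC1 inhibitor gene *Ddit4* (-1.20) and *Eif4ebp1* (-0.78), which encodes a repressor of translation initiation, completed the lower group. In CLE, *Sesn2* (1.11), *Eif4ebp1* (0.66) and *Chac1* (0.60) were called higher than in HFD, and *Atf3* (-3.01) and *Gdf15* (-1.13) lower, where 6.36% and 10.2% of all genes were. In LU, *Sesn2* (0.90), *Chac1* (0.83) and *Fgf21* (0.65), a hormone of fasting, were called higher and *Atf3* (-2.27) lower, where 4.79% and 7.67% of all genes were. *Fgf21* stood near the filter of 1 FPKM, with means of 0.872 FPKM in HFD and 1.95 FPKM in LU. CLE mouse 11 lay again nearest to HFD, with 22.2 FPKM of *Atf3* against 4.23 and 4.81 FPKM in the other CLE mice, and 3.35 FPKM of *Gdf15* against 1.14 and 0.858 FPKM.

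Amino acid genes downstream of ATF4 were not lowered together with *Asns*. Of 13 tested, 3 were called higher and 1 lower in HFD, where 14.9% and 10.8% of all genes were. The higher genes were *Mthfd2* (1.43, adjusted p = 2.7e-05) of mitochondrial folate metabolism, and *Aldh18a1* (1.32, adjusted p = 3.6e-05) and *Pycr1* (0.75) of proline synthesis. *Gpt2*, a mitochondrial alanine aminotransferase, was called lower, from 90.4, 96.8 and 75.1 FPKM to 38.1, 48.1 and 35.9 FPKM (-1.09, adjusted p = 0.0013). The median of the list was 0.38. *Psat1* and *Phgdh* of serine synthesis had changes of 0.55 and -0.42, under the fold required. In CLE against HFD, *Gpt2* (0.73) was called higher and *Mthfd2* (-1.03) and *Aldh18a1* (-0.70) lower, where 6.36% and 10.2% of all genes were. In LU against HFD, *Mthfd2* (-0.69) was called lower, where 7.67% of all genes were. Among the 8 libraries without the letter R, *Gpt2* was not called in CLE and *Mthfd2* not in LU, since 0 genes of the list were called higher in CLE and 0 lower in LU. A list of cytosolic tRNA synthetases and the tRNA exporter *Xpot* had 13 genes, with a median of 0.30 in HFD against ND. Of these, *Nars* was called higher in HFD at 0.73 (adjusted p = 6e-05), where 14.9% of all genes were. An adjusted p under 0.05 was found for 8 of the 13, all of them higher, against 50.6% of all genes in either direction. Limma called 0 of the 13 in CLE and in LU, where 6 and 4 had an unadjusted p under 0.05, against 44.0% and 39.3% of all genes.

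**Figure D4:**
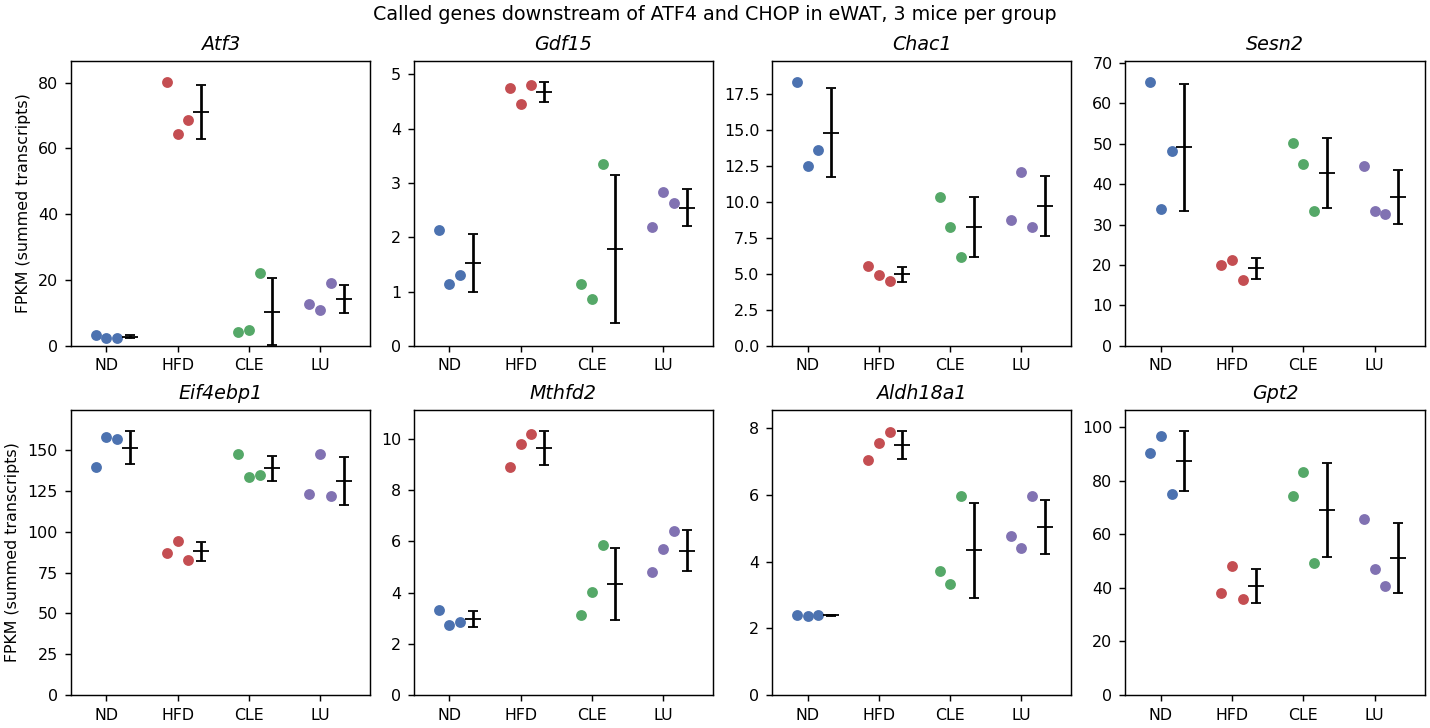
FPKM (y axis, starting at 0) of 8 called genes downstream of ATF4 and CHOP in each of the 3 mice of the ND, HFD, CLE and LU groups (coloured points), with the mean and SD of the group in black. *Atf3*, *Gdf15*, *Mthfd2* and *Aldh18a1* are highest in the HFD mice, and *Chac1*, *Sesn2* and *Eif4ebp1* lowest.

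The letters of ERSE and of the other elements were set beside the expression of all genes that hold them. Of 37 genes with an ERSE match, 19 were tested, and 3 of these (15.8%) were called higher and 2 lower in HFD than in ND, where 14.9% and 10.8% of all genes were called. The higher genes were *Calr*, *Hspa5* and *Adcy3* (0.79), and the lower genes *Acacb* (-1.82, adjusted p = 0.00015) and *Zfp57* (-0.69). The median log2 fold change of the 19 was 0.38, and besides the 3 chaperone genes with a printed promoter they included *Canx* (0.52), *Pdia6* (0.40), *Creld2* (0.39) and *Dnajc3* (0.38), none of which reached the fold required. Among those below 0, *Derl3* (-0.26) and *Syvn1* (-0.09), which act in ER-associated degradation and likewise hold the letters, did not pass the test, and *Pan2* (-0.54, adjusted p = 0.008) was under the fold required. Of 8 tested genes with ERSE-II, *Dnajb11* (0.65) was called higher (12.5%, where 14.9% of all genes were) and 0 lower, with a median of -0.25. *Herpud1* (-0.36), *Rcl1* (-0.47), *Rbm39* (-0.36) and *Lrif1* (-0.31) had an adjusted p under 0.05 but stayed under the fold required. *Lgalsl* (-0.19), *Krtcap2* (-0.15) and *Nucb1* (0.06) did not pass the test. In CLE against HFD, 2 of the 19 genes with ERSE were called higher and 1 lower, where 6.36% and 10.2% of all genes were.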

How the data were processed

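RNA of eWAT was sequenced by the authors as paired-end TruSeq libraries. The submitters' processing notes name CASAVA 1.8.2, Bowtie2 2.2.3, TopHat2 2.0.12 and Cufflinks 2.2.1; the genome build is not given in the sources used here. The authors deposited FPKM values for 152210 transcripts, known or assembled, with 1 column per library. The table has 15 FPKM columns, of which 3 belong to no sample described here and were left out. The column headed MD4 was assigned to ND mouse 4 by inference. Columns of the authors' own comparisons were not used.

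Rows with an Ensembl transcript identifier were summed per gene (22869 genes, GENCODE M21, GRCm38), and 87.6% of the known transcripts found there agreed in both coordinates. The 10 genes follow the symbol in the table. Rows left out held 65.8% to 92.9% of the total FPKM of a library, and totals over genes ranged from 436406 to 456198 FPKM. Low FPKM showed no steps of whole reads, and sequencing depth is therefore unknown.

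limma 3.58.1 in R 4.3.3 was fitted to log2(FPKM + 1) of the 12791 genes with at least 1 FPKM in at least 3 libraries, with all 12 libraries in 1 fit, no covariate, and Benjamini-Hochberg adjustment within each comparison. All adjusted p-values are from limma. The study tested counts, which the table does not give. The fit was tested on simulated data.

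The 10 genes, the lists and the motifs were chosen with earlier results of these data known. In each list, the called genes with the 2 largest rises and 2 largest falls were named for HFD against ND, CLE against HFD and LU against HFD, and other list genes were named after their values were seen. Of 138 list genes beside the 10, 137 were found in the table. Summed marker levels were computed for 11 tissues or cell types. Alternatives were a pseudocount of 0.1, other filters, scalings and gene summaries, the letter R as a covariate or left out, a replicate block, and each library left out in turn. Tables and plots used Python 3.11.15, pandas 2.3.3, numpy 2.4.6 and matplotlib 3.10.9.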

Additional observations from a re-analysis of the deposited data

How the results depend on the processing

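No called value of the 10 genes changed sign under any alternative. Of the 1440 recomputed fold changes of single genes among the 10, 1410 stayed on their side of the threshold, 11 came to pass it and 19 no longer passed it. With HFD set against ND, the number called was 6 in each fit without 1 library. It ranged from 1 to 5 in CLE against HFD, from 0 to 2 in LU against HFD and from 1 to 2 in LU against ND, and was 0 throughout in CLE against ND and CLE against LU. Among all 12791 genes, these fits called 3158 to 3398 in HFD against ND and 1908 to 2326 in CLE against HFD. They called 1357 to 1693 in LU against HFD and 572 to 965 in LU against ND. The count of LU against HFD, 1 in the reported fit, was 0 without the filter on low values. It was 2 with only the groups compared in the fit, with the letter R as a covariate, without the 4 libraries with the letter R, with the transcript of highest mean in place of the sum, with the adjusted p alone, and with a mean-variance trend. In CLE against ND it was 1 (*Asns*, -1.37) without the libraries with the letter R, where ND is a single mouse. In LU against ND it was 1 without the filter, with only the groups compared, and without the libraries with the letter R. The cause of these shifts was not tested.

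With the mouse number as a replicate block (correlation 0.087), 6, 4, 1, 0, 2 and 0 of the 10 genes were called in the comparisons in the order of the report (HFD with ND, CLE and LU with HFD, CLE and LU with ND, CLE with LU), the same counts as without it. Libraries of different groups with the same number had deviations correlated by -0.10 to 0.19. No pairing by number was seen, although so few pairs cannot exclude it, and the HFD mice share no number with the others. With the adjusted p alone, 6467 of all genes were called in HFD against ND, 4320 in CLE against HFD, 3464 in LU against HFD, 687 in CLE against ND and 1629 in LU against ND. In CLE against ND, where 383 of all genes were called, the count was 0 with only these groups in the fit, 239 without the filter, 183 without the libraries with the letter R, 216 with the transcript of highest mean and 224 with plain Ensembl transcripts. Over the fits without 1 library it ranged from 128 (without CLE mouse 11) to 504 (without CLE mouse 2), with 139 without ND mouse 2 and 240 without CLE mouse 4. Depth is unknown, and 3 mice per group limit what could be called.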

Other observations

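Chaperones of other compartments were followed in the same way, and their lists were not tested against that of the ER chaperones. Of 12 genes of the cytosolic heat shock response, 2 were called higher in HFD than in ND and 0 lower, near the 14.9% and 10.8% of all genes, with a median log2 fold change of 0.08. *Hsph1*, a nucleotide exchange factor of Hsp70 proteins, was measured at 12.7, 12.0 and 7.64 FPKM in ND, 26.0, 27.9 and 22.1 in HFD, 11.4, 10 and 18.4 in CLE, and 13.5, 20.7 and 14.7 in LU. Each HFD mouse was above each mouse of the other groups, with a change of 1.18 against ND (adjusted p = 0.0014 in limma) and of -0.92 in CLE against HFD (adjusted p = 0.011). *Hspa8*, the constitutive Hsp70, was the other call in HFD, at 0.67 (adjusted p = 0.0042). The stress-inducible *Hspa1a* and *Hspa1b* had -0.48 and -0.45, and neither was called, while *Hspa4* had 0.40 (adjusted p = 0.0014), under the fold required. *Hspb1*, a small heat shock protein, was called higher in LU than in HFD at 0.74 (adjusted p = 0.0012), with 61.2, 75.8 and 64.3 FPKM against 39.3, 41.6 and 38.3 FPKM, while HFD and ND overlapped.

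Among 8 mitochondrial chaperones and proteases, 0 were called higher and 2 lower in HFD than in ND, where 14.9% and 10.8% of all genes were, with a median of -0.27. These were the subunits of the ClpXP protease, *Clpx*, from 46.3, 36.7 and 37.9 FPKM to 23.0, 24.0 and 21.9 FPKM (-0.78, adjusted p = 9.9e-05), and *Clpp*, from 24.6, 21.2 and 23.5 FPKM to 12.2, 14.9 and 12.4 FPKM (-0.77, adjusted p = 0.00021). In CLE they stood at 34.8, 34.5 and 28.6 FPKM (*Clpx*) and 18.9, 19.6 and 17.7 FPKM (*Clpp*), both 0.49 above HFD, under the fold required. Limma called 0 genes of this list in CLE and in LU, where 5 and 3 had an unadjusted p under 0.05, against 44.0% and 39.3% of all genes.

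Markers of other tissues stayed low beside those of adipocytes, but some differed between the groups. The highest sum in any library was 23.1 FPKM for skeletal muscle (5 of 6 markers in the table), 49.0 for pancreatic acinar cells, 35.1 for liver, 53.3 for mesothelium and 14.3 for T cells. The acinar sum was carried by *Cela1*, with means of 12.8 FPKM in ND and 39.9 FPKM in HFD (1.64, adjusted p = 0.001). The other acinar markers were too low to be tested. Endothelial markers summed to 180 to 298 FPKM in HFD and to 228 to 411 FPKM in the other groups.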
